A study of Homo sapiens with 2 samples.

Results

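Chromatin accessibility at the PAX transcription factor genes was examined in G401 cells treated with DMSO or with the PRC2 inhibitor MAK683. The family was taken as its 9 members, PAX1 to PAX9, of 20163 protein-coding genes on the main chromosomes. A peak belonged to a PAX gene when it lay within 3 kb of any annotated transcription start site (TSS) of that gene or inside the gene body (GENCODE 44, hg19). By this rule 41 of 114060 peaks in the DMSO library and 131 of 161184 peaks in the MAK683 library were PAX peaks. The rule itself used gene positions and no measured value.

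G401 is an established kidney rhabdoid tumor line that lacks SMARCB1, a subunit of the SWI/SNF chromatin remodeler. One culture was given DMSO, the solvent, and another MAK683 at 3 µM, both for 3 days. MAK683 is a small molecule that binds EED and blocks PRC2, the Polycomb complex that methylates histone H3 at lysine 27. The assay was ATAC-seq, in which the Tn5 transposase inserts adapters into open DNA. There was 1 library per group, so differences between groups could not be tested against the variation between cultures and are given with counting error only.

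PAX proteins are developmental transcription factors that bind DNA through a paired domain, and several of them also carry a homeodomain. The family falls into subgroups by sequence: PAX2, PAX5 and PAX8; PAX3 and PAX7; PAX4 and PAX6; PAX1 and PAX9. PAX2 and PAX8 act in kidney development, PAX8 also in the thyroid, and PAX5 in B cells and the midbrain. PAX3 and PAX7 act in the neural crest and muscle precursors, PAX6 in the eye, brain and pancreas, PAX4 in pancreatic beta cells, and PAX1 and PAX9 in the vertebral column, thymus and teeth. In cells that do not express them, genes of this kind are classical Polycomb targets, which is why their accessibility after PRC2 inhibition is of interest.

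The MAK683 library held 18265284 tags after filtering and the DMSO library 16598348, a ratio of 1.1. Peak height was the number of tags over the summit per 1000000 tags after filtering (RPM), so that 1 tag was worth 0.0602 RPM in DMSO and 0.0547 RPM in MAK683. MAK683 peaks were more numerous genome-wide by a ratio of 1.41, and the median peak height was 0.663 RPM in DMSO and 0.547 RPM in MAK683. Gene counts must be read against that difference. SMARCB1 itself had 0 peaks in both libraries by the rule used for the PAX genes. A higher peak can stand for more cells with an open site or for a site that is open more often in each cell, which these data do not separate.

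The sequences below are the 300 bases about the summit of the tallest region in 5 PAX genes, read from the GRCh37 genome in the direction of the gene, with each CpG in capitals. PAX3, PAX7 and PAX8 are shown as examples of genes whose tallest regions were taller, or listed only, in MAK683. The tallest regions of PAX1, PAX4, PAX5 and PAX9 were also taller in MAK683 and are not printed. PAX2 and PAX6 are shown because theirs stood at like heights in both libraries.

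PAX3, chr2:223156006-223156305, minus strand: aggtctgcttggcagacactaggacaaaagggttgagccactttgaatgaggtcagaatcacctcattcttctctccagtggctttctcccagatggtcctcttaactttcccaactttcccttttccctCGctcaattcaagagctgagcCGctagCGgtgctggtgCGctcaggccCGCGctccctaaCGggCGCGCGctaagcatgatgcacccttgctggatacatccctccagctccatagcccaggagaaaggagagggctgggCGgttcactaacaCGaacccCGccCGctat
PAX7, chr1:18969888-18970187, plus strand: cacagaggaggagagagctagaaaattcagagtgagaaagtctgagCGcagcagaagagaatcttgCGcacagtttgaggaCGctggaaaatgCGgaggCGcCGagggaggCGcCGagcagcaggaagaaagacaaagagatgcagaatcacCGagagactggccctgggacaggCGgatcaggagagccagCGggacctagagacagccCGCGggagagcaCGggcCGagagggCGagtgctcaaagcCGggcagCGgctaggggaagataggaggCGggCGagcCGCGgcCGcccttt
PAX8, chr2:114030680-114030979, minus strand: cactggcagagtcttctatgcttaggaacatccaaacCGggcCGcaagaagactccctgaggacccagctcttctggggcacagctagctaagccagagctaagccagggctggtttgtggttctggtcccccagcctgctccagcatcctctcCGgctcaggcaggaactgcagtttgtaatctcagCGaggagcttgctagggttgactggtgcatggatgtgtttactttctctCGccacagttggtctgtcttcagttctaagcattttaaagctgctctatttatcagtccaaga
PAX2, chr10:102503863-102504162, plus strand: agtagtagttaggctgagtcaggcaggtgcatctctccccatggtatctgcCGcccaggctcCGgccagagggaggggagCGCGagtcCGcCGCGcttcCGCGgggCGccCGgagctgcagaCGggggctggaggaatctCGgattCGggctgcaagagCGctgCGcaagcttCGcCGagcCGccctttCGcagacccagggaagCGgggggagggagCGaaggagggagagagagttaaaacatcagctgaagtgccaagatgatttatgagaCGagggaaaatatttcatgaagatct
PAX6, chr11:31831807-31832106, minus strand: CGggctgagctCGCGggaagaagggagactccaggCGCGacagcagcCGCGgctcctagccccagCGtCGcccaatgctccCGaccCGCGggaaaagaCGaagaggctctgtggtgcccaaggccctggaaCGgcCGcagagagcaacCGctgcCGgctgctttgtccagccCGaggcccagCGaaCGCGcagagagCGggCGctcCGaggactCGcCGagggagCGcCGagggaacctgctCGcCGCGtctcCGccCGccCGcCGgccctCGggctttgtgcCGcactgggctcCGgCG

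The PAX6 stretch held 39 CpGs, the PAX2 and PAX7 stretches 23 each and the PAX3 stretch 14. The PAX8 stretch held 5, so a CpG-dense sequence was not shared by all of the tallest regions.

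The family held 41 peaks in DMSO and 131 in MAK683, a ratio of 3.20 against 1.41 for all peaks. The 7 genes PAX1, PAX3, PAX4, PAX5, PAX7, PAX8 and PAX9 had at least 2 times as many peaks in MAK683, which 24.9% of the coding genes with a peak also had. PAX2 and PAX6 did not, with 25 peaks in DMSO and 21 in MAK683 between them. Without those genes the counts were 16 and 110, a ratio of 6.88. PAX3 alone supplied 31 of the MAK683 peaks, and without it the family ratio was 2.50. Without PAX3 and PAX7 it was 2.08, still above that of all peaks. PAX peaks covered 34.7 kb in DMSO and 89.1 kb in MAK683, a ratio of 2.57, while the ratio of bases covered by all peaks was 1.13. By this measure PAX2 and PAX6 differed. PAX2 peaks covered 17.0 kb in DMSO and 11.4 kb in MAK683, and PAX6 peaks 7.59 kb and 8.97 kb.

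**Figure D1:**
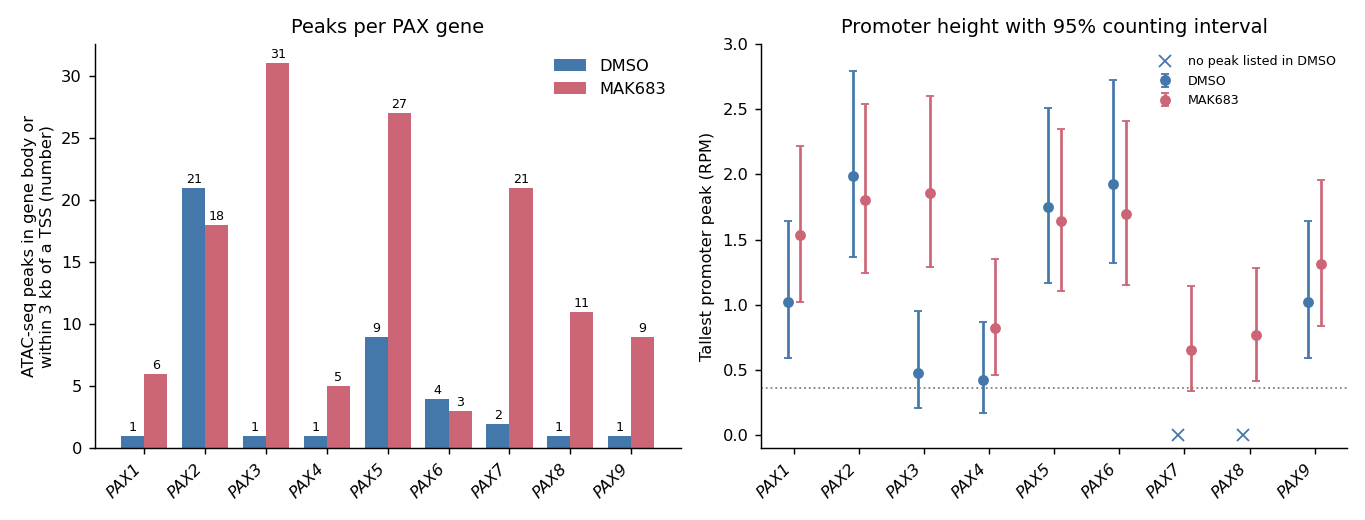
Left, number of ATAC-seq peaks at each PAX gene in DMSO (blue bars) and MAK683 (red bars); right, height of the tallest promoter peak in RPM with its 95% counting interval, with crosses where DMSO had no promoter peak and a dotted line at the floor of 0.361 RPM. PAX3 has 1 and 31 peaks and PAX2 has 21 and 18, and only at PAX3 do the intervals of the promoter heights stand apart.

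Most PAX peaks were low. The median was 10 tags in both libraries, with a range of 7 to 33 tags in DMSO and 6 to 34 tags in MAK683. Peaks of at least 1 RPM numbered 10 in DMSO and 13 in MAK683, a ratio of 1.30, and over all peaks that ratio was 0.716. At a minimum of 0.5 RPM the libraries were nearly matched over all peaks, with a ratio of 1.02, and the family still had 32 peaks in DMSO and 83 in MAK683, a ratio of 2.59. At that minimum PAX3 had 0 peaks in DMSO and 21 in MAK683, PAX7 had 2 and 12, and PAX5 had 8 and 18. PAX2 had 17 in DMSO and 11 in MAK683.

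Promoter height was the tallest peak within 3 kb of any TSS of a gene. A library without a promoter peak was given a floor of 0.361 RPM, the height of a 6-tag peak in DMSO. A promoter peak was present at 7 PAX genes in DMSO and at all 9 in MAK683. PAX7 and PAX8 had one only in MAK683, as did 9.28% of coding genes with a promoter peak. Promoter height was higher in MAK683 by any amount at 6 of 9 PAX genes, against 21.5% of coding genes. It was at least 2-fold higher at 2 (PAX3, and PAX8 against the floor that stands in for its absent DMSO peak), against 3.25%, and at least 2-fold lower at 0, against 5.21%. Which genes reached 2-fold changed with the TSS window and set and with the peak filter, and each gene so added had DMSO set to the floor. On the log2 scale the median ratio, MAK683 over DMSO, was 0.58 over the PAX promoters and -0.42 over all coding promoters.

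The absent DMSO peaks of PAX7 and PAX8 were set to a floor, against which a MAK683 peak is nearly bound to be higher, so the comparison was also made over promoters with a peak in both libraries. Of these 7 PAX promoters 4 were higher in MAK683, against 13.9% of 15063 coding promoters, and 1 (PAX3) was at least 2-fold higher, against 1.1%. The median log2 ratio was 0.36 over the PAX promoters and -0.46 over the coding ones. PAX1, PAX3, PAX4 and PAX9 had DMSO heights under 1.1 RPM. All 4 were higher in MAK683, as were 52% of the 2732 coding promoters in that range, with medians of 0.77 and 0.03. PAX2, PAX5 and PAX6 began above 1.5 RPM and had log2 ratios of -0.14, -0.09 and -0.18, and the median over the 10535 coding promoters at least that tall was -0.53.

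**Figure D2:**
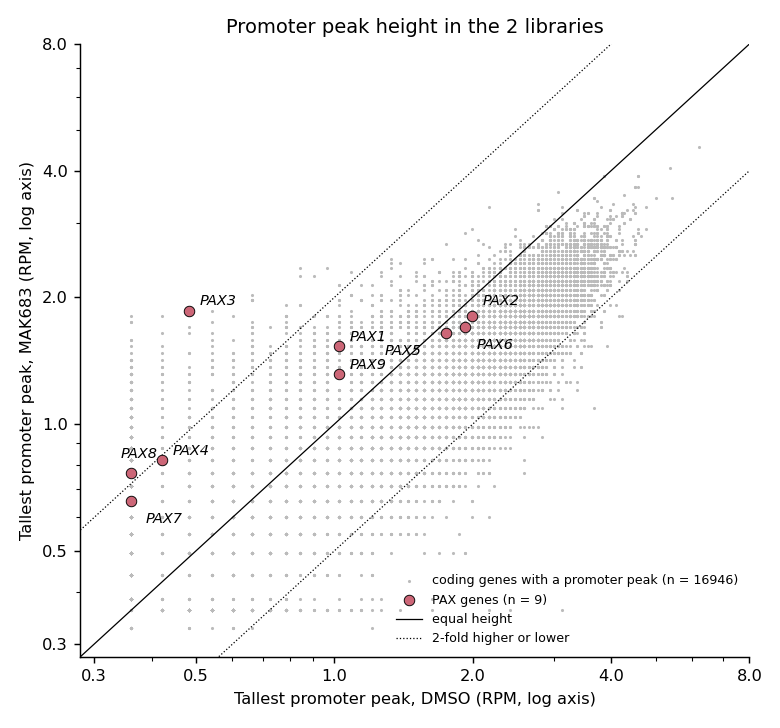
Promoter height in MAK683 against promoter height in DMSO, both in RPM on log axes, for coding genes in grey and the 9 PAX genes in colour; a library without a promoter peak is drawn at the floor of 0.361 RPM. PAX3 and PAX8 lie at least 2-fold above equality, and PAX2, PAX5 and PAX6 lie close to it.

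PAX3, a regulator of neural crest and muscle precursors, differed most between the libraries. The gene lies on the minus strand at chr2:223064606-223163717 and is 99.1 kb long. It held 1 peak in DMSO and 31 in MAK683. The DMSO peak had 8 tags (0.482 RPM, 95% exact interval 0.208 to 0.95), and the tallest MAK683 promoter peak had 34 tags (1.86 RPM, 1.29 to 2.60). The intervals do not overlap, and the log2 ratio was 1.95 (0.84 to 3.06), at percentile 99.9 of the coding promoters. This was the only PAX promoter whose interval left out 0, and no allowance was made for its choice among 9 genes.

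The DMSO peak and the tallest MAK683 peak of PAX3 fell in 1 region, chr2:223155277-223159401, with the MAK683 summit in intron 4. Their summits were 2477 bp apart, so the ratio compares heights within a 4125 bp region rather than at 1 point. The MAK683 summit lay 7561 bp and the DMSO summit 5084 bp downstream of the canonical TSS, within 3 kb of other annotated starts. The region over the canonical TSS, with its summit at -131 bp, had 12 tags in MAK683 and no DMSO peak. With the canonical TSS alone the log2 ratio was 1.92, with DMSO set to the floor. The next tallest regions had MAK683 peaks only. One lay in intron 2 at chr2:223159972-223160815 with 25 tags, and the other upstream at chr2:223165125-223167258 with 24 tags, its summit at -2127 bp from the canonical TSS. The remaining 28 regions had MAK683 peaks of 7 to 17 tags.

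PAX3 peaks were spread over 82.5 kb in MAK683, with a median gap of 0.999 kb between neighbours, and 13 of the 31 summits lay within 20 kb of the canonical TSS. Their summed length was 0.425% of the gene's length in DMSO and 22.1% in MAK683. The MAK683 sum includes peaks upstream of the gene, so a smaller part of the gene itself was covered. A gain of 30 peaks or more was seen at 277 coding genes, most of them longer than PAX3. Among the 14089 coding genes no longer than PAX3, 6 gained as many. Chromosome 2 as a whole had 1.66 times as many peaks in MAK683.

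PAX7, the close relative of PAX3, lies on the plus strand at chr1:18957340-19075360 and is 118 kb long. It held 2 peaks in DMSO, of 9 and 10 tags, and 21 in MAK683, of 7 to 21 tags. No DMSO peak lay within 3 kb of a TSS. In MAK683 there were 5, the tallest with 12 tags (0.657 RPM, 0.339 to 1.15), in chr1:18960625-18961949. DMSO was set to 0.361 RPM, the height of a peak at the calling limit of 6 tags there, which gave a log2 ratio of 0.86 that depends on this floor.

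The tallest PAX7 regions lay further into the gene. The intron 4 region chr1:18969869-18970649 had 9 tags in DMSO (0.542 RPM) and 21 in MAK683 (1.15 RPM), with summits 21 bp apart. Its log2 ratio was 1.08 with an interval of -0.04 to 2.21, which holds 0. Regions with MAK683 peaks only followed, of 20 tags in intron 4 (chr1:18964599-18965498) and 19 tags in intron 3 (chr1:18962124-18963080). Of the 21 MAK683 summits, 14 lay within 20 kb of the canonical TSS. Among the 14744 coding genes no longer than PAX7, 71 gained as many peaks.

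**Figure D3:**
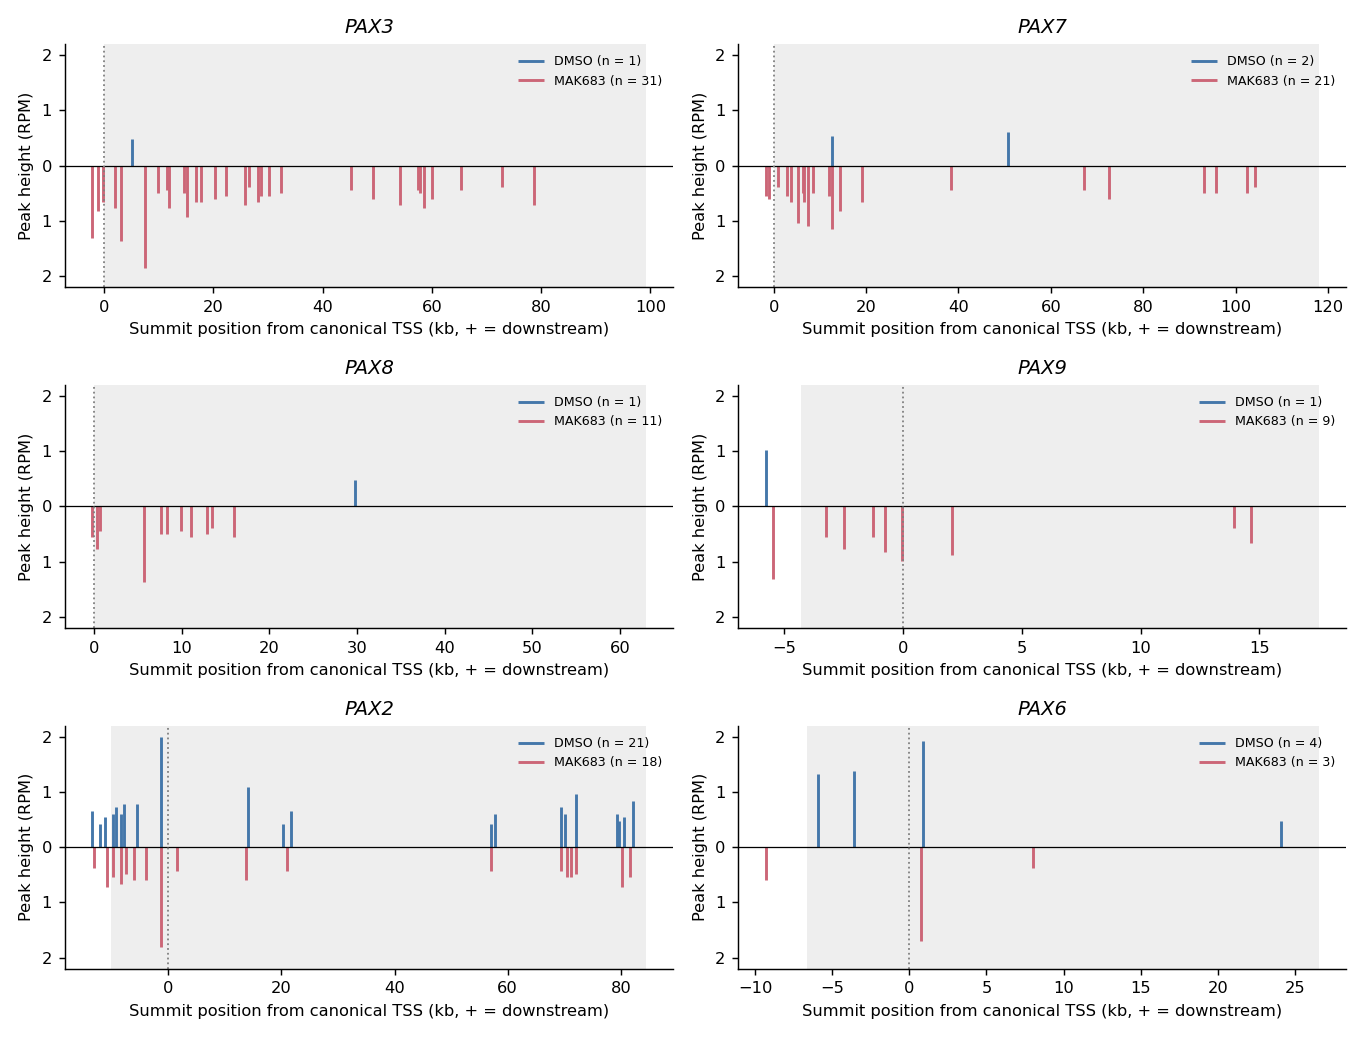
Summits along PAX3, PAX7, PAX8, PAX9, PAX2 and PAX6, in kb from the canonical TSS (dotted line) in the direction of the gene, with the gene body shaded; DMSO peaks point up and MAK683 peaks point down, and the length of each line is the height in RPM. In PAX7 14 of 21 and in PAX8 11 of 11 MAK683 summits lie within 20 kb of the canonical TSS, whereas PAX2 and PAX6 carry tall peaks in both libraries.

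PAX2, a regulator of kidney and optic development, was the member with most peaks in DMSO. It lies on the plus strand at chr10:102495153-102589701 and is 94.5 kb long. It held 21 peaks in DMSO and 18 in MAK683. The tallest promoter peak had 33 tags in both libraries, which was 1.99 RPM (1.37 to 2.79) in DMSO and 1.81 RPM (1.24 to 2.54) in MAK683. The intervals overlap almost wholly, with a log2 ratio of -0.14 (-0.83 to 0.56), and the summits were 3 bp apart.

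That PAX2 region was chr10:102500504-102506352, 5849 bp long, with its DMSO summit at -1326 bp from the canonical TSS. The next tallest were chr10:102518961-102519709 in intron 3, with 18 tags in DMSO and 11 in MAK683, and chr10:102576498-102577561 in intron 7, with 16 and 10 tags. Of the 23 PAX2 regions 13 had a peak in both libraries, 7 in DMSO only and 3 in MAK683 only. Of the 13 shared regions 4 were taller in MAK683 and 9 in DMSO by RPM, each with an interval that held 0. Those with equal tags in both libraries are counted as taller in DMSO.

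PAX8, which acts beside PAX2 in the developing kidney and is the thyroid member of the subgroup, had a different profile. It lies on the minus strand at chr2:113973574-114036498 and is 62.9 kb long. It held 1 peak of 8 tags in DMSO and 11 in MAK683, of 7 to 25 tags, and no region had a peak in both. There was no DMSO promoter peak. The tallest MAK683 promoter peak had 14 tags (0.766 RPM, 0.419 to 1.29), in intron 1 at chr2:114036052-114036389, with a log2 ratio of 1.08 against the floor.

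The tallest PAX8 region was in intron 2 at chr2:114030028-114031236, with 25 tags in MAK683 (1.37 RPM) and no DMSO peak. After these regions of 25 and 14 tags came 3 of 10 tags, all with a peak in MAK683 only. They were chr2:114020493-114020694 and chr2:114025253-114025800 in intron 2, and chr2:114036527-114037232 with its summit upstream. All 11 MAK683 summits lay within 20 kb of the canonical TSS. The antisense gene PAX8-AS1 overlaps the locus, and reads of open DNA cannot be assigned to either gene.

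PAX5, a B cell factor, is the longest member, 201 kb on the minus strand at chr9:36833266-37034265. It held 9 peaks in DMSO and 27 in MAK683. The tallest promoter peak had 29 tags in DMSO (1.75 RPM, 1.17 to 2.51) and 30 in MAK683 (1.64 RPM, 1.11 to 2.34), with a log2 ratio of -0.09 (-0.83 to 0.65). These peaks were not in the same place. The intron 1 region chr9:37026009-37028091 had 29 tags in DMSO and 27 in MAK683, and the upstream region chr9:37036370-37038552 had 19 and 30, a log2 ratio of 0.52 (-0.31 to 1.35). An intron 5 region at chr9:36995702-36997013 had 18 tags in both.

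The 19 PAX5 regions with a MAK683 peak only had a median of 10 tags and a highest of 17. All 8 regions with a DMSO peak also had a MAK683 peak. Of the 16229 coding genes no longer than PAX5, 206 gained as many peaks.

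PAX6, the eye and pancreas regulator, is 33.2 kb long on the minus strand at chr11:31806327-31839509. It held 4 peaks in DMSO and 3 in MAK683. The tallest promoter peak had 32 tags in DMSO (1.93 RPM, 1.32 to 2.72) and 31 in MAK683 (1.70 RPM, 1.15 to 2.41), with a log2 ratio of -0.18 (-0.90 to 0.53). Both lay in chr11:31831319-31839385. In MAK683 this was a single peak of 8067 bp, wider than 99.98% of the peaks of its library, and in DMSO 3 peaks of 3526, 2743 and 848 bp lay within it. The region also holds TSSs of the noncoding gene PAUPAR and of ENSG00000285283, so its height cannot be given to PAX6 alone.

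The other PAX6 regions were low. An upstream one at chr11:31841770-31842346 had 11 tags in MAK683 only, and one past the gene's canonical end at chr11:31808688-31809162 had 8 tags in DMSO only.

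PAX4, which shares a subgroup with PAX6 and acts in the pancreas, is the shortest member, 7.85 kb on the minus strand at chr7:127250346-127258196. It held 1 peak in DMSO and 5 in MAK683, all within 3 kb of a TSS. The tallest had 7 tags in DMSO (0.422 RPM, 0.170 to 0.869) and 15 in MAK683 (0.821 RPM, 0.460 to 1.35), in the upstream region chr7:127259264-127261302. The log2 ratio was 0.96 with an interval of -0.33 to 2.26, and the summits were 850 bp apart. MAK683 peaks of 14 tags (upstream, chr7:127258215-127259022) and 10 tags (intron 3, chr7:127255194-127256091) had no DMSO partner. PAX4 was low in both libraries, and at a minimum of 1 RPM it had 0 peaks in either.

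PAX1 and PAX9, which pattern the sclerotome and pharyngeal pouches, both had a single peak in DMSO. PAX1, 12.8 kb on the plus strand at chr20:21686297-21699119, held 1 peak in DMSO and 6 in MAK683. PAX9, 21.8 kb on the plus strand at chr14:37126773-37148567, held 1 and 9. In both genes the single DMSO peak was an upstream one of 17 tags (1.02 RPM, 0.597 to 1.64), and the same region had the tallest MAK683 peak.

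At PAX1 that region was chr20:21683184-21684665, with 28 tags in MAK683 (1.53 RPM, 1.02 to 2.22) and a log2 ratio of 0.58 (-0.29 to 1.45). It also holds a TSS of LINC01726. MAK683 peaks followed at chr20:21684931-21685432, upstream with 17 tags, and chr20:21688438-21689547, in intron 2 with 14 tags.

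At PAX9 the region was chr14:37124869-37126196, with 24 tags in MAK683 (1.31 RPM, 0.842 to 1.96) and a log2 ratio of 0.36 (-0.54 to 1.26). A MAK683 peak of 18 tags at chr14:37130621-37131576 had its summit at -62 bp from the canonical TSS, where DMSO had no peak. Another of 16 tags lay in intron 2 at chr14:37132420-37133795. Of the 6947 coding genes no longer than PAX9, 25 gained as many peaks, and of the 4650 no longer than PAX1, 88 did.

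**Figure D4:**
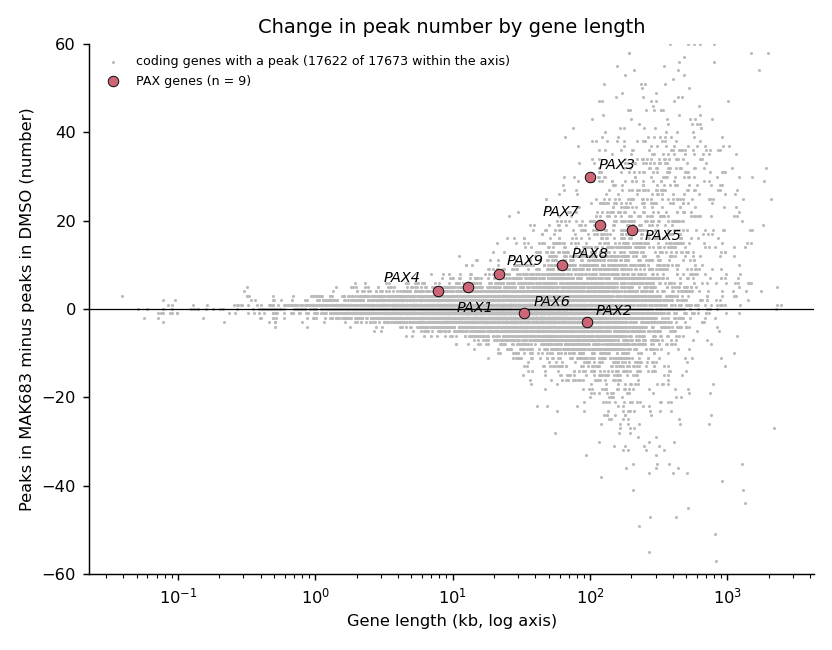
Peaks in MAK683 minus peaks in DMSO (number) against gene length in kb on a log axis, for coding genes with a peak in grey and the 9 PAX genes labelled; 17622 of 17673 coding genes fall within the axis. PAX3, with 30 more peaks, and PAX7, with 19 more, lie near the upper edge for their length, and PAX2 lies below 0 with 3 fewer.

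PAX2 and PAX3 are of like length, and PAX2 had 3 fewer peaks in MAK683 while PAX3 had 30 more. In DMSO PAX2 had 21 peaks and PAX3 had 1, and in MAK683 they had 18 and 31.

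Merging overlapping peaks gave 139 PAX regions. Of these 102 (73.4%) had a peak only in MAK683, against 45.9% of all 199510 regions. A further 27 (19.4%) had a peak in both libraries and 10 (7.19%) only in DMSO. Of all 199510 regions 57983 had a peak in both libraries. Of the 199504 with a full sequence about the summit 49994 had a peak only in DMSO. Of the 10 DMSO-only regions 7 were in PAX2. The MAK683-only regions had a median of 10 tags and a highest of 25, and the absence of a peak in DMSO means a height under the calling limit, not closed chromatin. By place, 39 of the 57 promoter regions and 63 of the 82 other regions were MAK683-only. Summits fell in an intron of the canonical transcript for 105 regions, upstream for 28, in a UTR exon for 3, in a coding exon for 2 and downstream for 1.

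In the 27 shared regions the heights were close. MAK683 was taller in 14 and DMSO in 13, the log2 ratio ran from -0.85 to 1.95, and its median was 0.05 against -0.33 over all 57983 shared regions. By that median most of all shared regions were taller in DMSO. Regions with equal tags in both libraries count here as taller in DMSO, through the scaling for depth. Regions at least 2-fold taller in MAK683 numbered 2, those of PAX3 and PAX7 given above, against 0.873% of all shared regions. At least 2-fold lower were 0, against 5.54%. The PAX3 interval alone left out 0. In PAX2 and PAX6 the median over 14 shared regions was -0.16, and in the other genes it was 0.36 over 13, of which 10 were taller in MAK683. The summits of the tallest peaks were at most 150 bp apart in 13 of the 27.

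The DNA around the PAX genes was also counted, out to 100 kb on each side of the gene. These flanks held 86 peaks in DMSO and 205 in MAK683, a ratio of 2.38, between that of the PAX loci and that of all peaks. PAX3 had 2 flank peaks in DMSO and 22 in MAK683, PAX9 had 4 and 31, PAX8 had 7 and 33, PAX5 had 3 and 21, PAX7 had 3 and 15, and PAX1 had 1 and 8. PAX2 had 45 and 48, PAX4 had 15 and 19, and PAX6 had 6 and 8. The excess in MAK683 was therefore not limited to the gene bodies and promoters, and at 4 genes the flank ratio was above the ratio within the locus. Flanks hold promoters of neighbouring genes, whose part was not tested.

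PAX regions were richer in CpG than most. CpG content is given as observed over expected, the number of CpGs in 300 bases about the summit relative to that from the C and G content. Its median was 0.274 in PAX regions and 0.210 in all regions, with a GC content of 54.0% and 49.7%. A value of at least 0.6, the usual mark of a CpG island, was found in 23 PAX regions (16.5%) and in 8.83% of all regions. Among MAK683-only regions it was found in 13 of 102 (12.7%) at PAX genes and in 2.19% of those genome-wide. Among shared regions the shares were 33.3% and 23.8%. Of the 139 PAX regions 57 lay within 3 kb of a TSS, and the part of this nearness in the CpG content was not tested.

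Members differed in this too. PAX9 regions had a median of 0.605, with 5 of 9 at 0.6 or more. PAX8 and PAX4 regions had medians of 0.110 and 0.163, below that of all regions, and PAX2 regions one of 0.210, like that of all regions. PAX3 regions had a median of 0.292, above that of all regions, with a median GC content of 43.3%, below that of all regions, and a median of 4 CpGs. The stretch at the PAX3 summit printed above, with 14 CpGs, was therefore unlike most PAX3 regions.

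**Figure D5:**
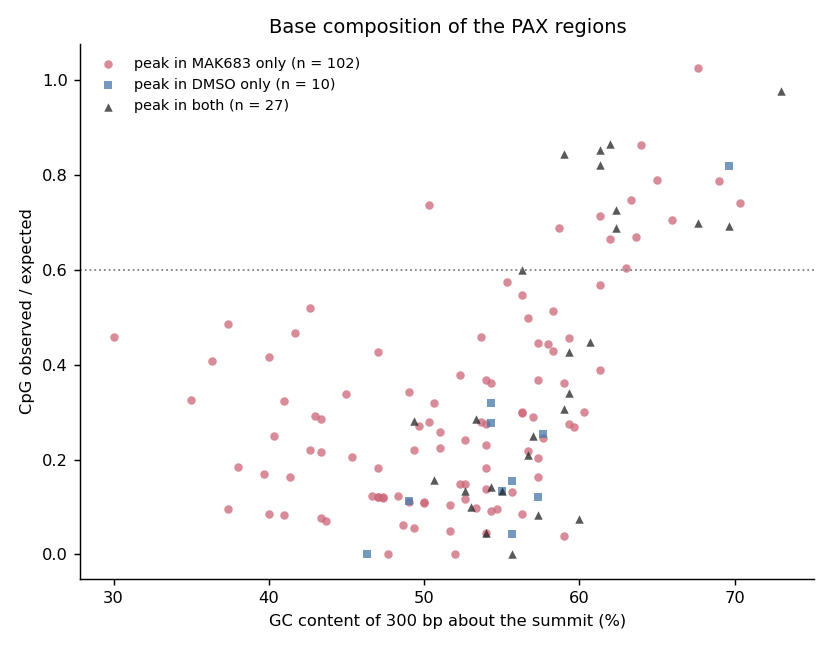
CpG observed over expected against GC content (%) in the 300 bases about the summit of each of the 139 PAX regions, by the library that has a peak; the dotted line marks 0.6. The MAK683-only points reach from below 40% GC to the CpG-rich corner, where 13 of them and 9 shared regions lie at or above the line.

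Short motifs were searched on both strands of the same 300 bases, as a description of sequence and not of binding. TGANTCA, the AP-1 type site, was in 9 PAX regions (6.47%) and in 8.71% of all regions. GGGCGG, the GC box, was in 22 (15.8%) and in 12.8%. GTCACGC, a core of the paired domain site, was in 1 (0.719%) and in 0.944%, and the palindrome bound by pairs of homeodomains was in 0 PAX regions and in 0.318% of all regions. GGGCGG and GTCACGC each hold a CpG. In MAK683-only regions TGANTCA was in 4.90% at PAX genes and in 9.34% genome-wide, and GGGCGG was in 10.8% and in 6.37%. Of the stretches printed above, GGGCGG was present in those of PAX2, PAX3, PAX6 and PAX7, and TGANTCA in that of PAX2.

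A list of 44 genes that work with PAX proteins was set beside the family. It holds 23 partners or cofactors, such as EYA1 and DACH1, which act with PAX proteins in many organs, and the kidney regulators WT1 and SALL1, and 21 genes known as PAX targets in some tissue. Of the 42 with a promoter peak 20 were higher in MAK683 and 22 lower, with a median log2 ratio of -0.05, beside 21.5% higher and a median of -0.42 over all coding promoters. At least 2-fold higher were 2 (4.76%), both against the floor, beside 3.25% of coding promoters, and at least 2-fold lower 0, beside 5.21%. Peaks by the rule numbered 263 in DMSO and 442 in MAK683, a ratio of 1.68, and 20 genes had at least 2 times as many. That is 20 of the 42 with a peak, beside 7 of the 9 PAX genes and the 24.9% given above. The number of peaks at these genes thus had a ratio between that of the PAX genes and that of the genome. That ratio leans on single genes of the list. The target TG held 2 of the DMSO peaks and 103 of the MAK683 peaks, and the target MITF held 119 and 70.

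Among the partners the median log2 ratio was 0.02, with 11 higher and 10 lower, and none was 2-fold apart. SIX2 and SALL1, which maintain kidney progenitors, had a promoter peak only in MAK683, of 12 and 13 tags. DACH2 and SOX10 had no promoter peak in either library. Among the targets the median was -0.08, with 9 higher and 12 lower. TG, the thyroglobulin gene and a target of PAX8 in the thyroid, had a promoter peak only in MAK683, of 15 tags, with a log2 ratio of 1.18 against the floor. MYF5, a muscle determination gene downstream of PAX3 and PAX7, had one of 13 tags and TYR, the melanocyte tyrosinase, one of 12 tags, both only in MAK683.

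The coding promoters most like that of PAX3 in their heights in both libraries included UGT3A2, PLXNA4, PAMR1 and ITGA2. Likeness was the distance between the pairs of log2 heights, over 2 libraries. UGT3A2 had the same 8 and 34 tags, PLXNA4 had 8 and 31 (distance 0.133), PAMR1 had 9 and 34 (0.170) and ITGA2 had 9 and 32 (0.191). The match is of heights only.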

How the data were processed

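ATAC-seq was compared between 1 DMSO and 1 MAK683 library of G401 cells, treated for 3 days, with paired reads of 150 bp per the labels. The authors trimmed reads with Trim-galore, aligned them to hg19 with Bowtie2 and called narrow peaks on each library alone. Per the file headers MACS 2.1.1.20160309 was run without a control or local background, with tags shifted by 100 bp and extended to 200 bp, 1 tag per position, a q-value cutoff of 0.05 and reads taken as single ends. The submitters' notes also name MACS2 2.1.0 and 2.2.7.1. A single background per library leaves local differences in coverage in the peak calls.

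The deposited pileup signal at each summit is a number of tags, not scaled for depth, and was divided here by the tags after filtering. The deposited fold enrichment is a ratio to background and served as an alternative height. The deposited −log10 p-value was not used, and the deposited −log10 q-value served as a filter.

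Peaks overlapping by at least 1 bp were merged into regions. A library without a promoter peak was set to 0.361 RPM, that of 6 tags in DMSO. Height intervals are 95% exact Clopper-Pearson intervals, and log2 intervals are 95% Poisson intervals by a normal approximation. They cover counting error only, since each group had 1 library, and no molecular identifiers mark duplicate reads. The interval code was tested on simulated data. Genes came from GENCODE 44 lifted to GRCh37, and all peak ends lay within its chromosome lengths. All 9 PAX genes were named, each with its tallest promoter region and its 2 tallest other regions. Of the gene list, those at least 2-fold apart or with a promoter peak of at least 10 tags in 1 library only were named, and for PAX3 the 5 coding promoters nearest in height, except that some of these genes are not reported here. The members and lists were chosen with earlier results of these data known. Alternatives were peak filters, TSS windows and sets, overlap rules and height scales. The comparisons by promoter height in DMSO, of flanks and with genes no longer than a member, and the minima of 0.5 and 1 RPM, were chosen after seeing the data. Python 3.11.15, numpy 2.4.6, pandas 2.3.3, scipy 1.17.1, pysam 0.24.0 and matplotlib 3.10.9 were used.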

Additional observations from a re-analysis of the deposited data

How the results depend on the processing

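No paired analysis was possible because each group had 1 library, and for the same reason no replicate could be left out. Of 149 alternative values, 113 counted as the same, 24 as moved and 12 as turned in direction. A ratio counted as the same when its direction did not turn and it lay within the interval of the main value. Numbers of peaks, genes or regions had no interval and counted as the same when near the main number. The side of the 2-fold threshold was not part of this count. With a 1 kb window PAX1 at 1.36 and PAX4 at 1.08 passed 2-fold and still counted as the same. The PAX peaks in DMSO and MAK683 numbered 27 and 62 at a −log10 q of at least 5, 12 and 21 at 10 (a ratio of 1.75), and 21 and 55 without gene bodies. At 0.5 RPM the MAK683 count was 83, and at 1 RPM the counts were 10 and 13 (a ratio of 1.30). The ratio over PAX genes stayed above that over all peaks in each of these filters where both were computed. Leaving out peaks over another gene's TSS, chosen after seeing the data, gave 3.39 against 1.48. Shared PAX regions numbered 13 and 8 at the −log10 q filters, 6 at 1 RPM, 12 with an overlap of 50% and 14 with summits within 150 bp.

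Median ratios near 0 turned with the scale. The log2 median of shared PAX regions was -0.14 under both −log10 q filters and 0.39 relative to the genome median of -0.33. On that relative scale PAX2, PAX5 and PAX6 were at 0.19, 0.24 and 0.15. PAX5 was at 0.52 with the canonical TSS, 0.049 with raw tags and 0.65 with promoter peaks summed, and the sums gave a PAX promoter median of 2.28. Further genes passed 2-fold under other rules. With a 1 kb window PAX1 was at 1.36 and PAX4 at 1.08, and with a 5 kb window PAX7 was at 1.52. With the canonical TSS PAX9 was at 1.45, and at a −log10 q of at least 5 PAX4 was at 1.18. Each of these PAX1, PAX4, PAX7 and PAX9 values set DMSO to the floor of 0.361 RPM. Under those rules no DMSO promoter peak was left, so the values are not ratios of measured heights. The median of the 44-gene list was 0.0049 with canonical TSSs, 0.090 with raw tags, 0.0062 with fold enrichment and 0.28 relative to the genome median. Depth limits single genes: a peak of 10 tags has a wide counting interval.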

Other observations

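Several genes of the PAX network were chosen here after their values were seen. EYA1, a phosphatase and transcriptional co-activator, had 1 peak in DMSO and 20 in MAK683, and WT1, a kidney regulator, had 2 and 20. MEIS1, a homeodomain cofactor, had 4 and 21, and its promoter peak had 19 tags in DMSO and 39 in MAK683, a log2 ratio of 0.90 with a counting interval of 0.11 to 1.69. Intervals that left out 0 the other way were those of HOXA11, with 36 and 21 promoter tags (-0.92, -1.69 to -0.14), and PAGR1, with 43 and 28 (-0.76, -1.44 to -0.07). Both began above 1.5 RPM in DMSO, and both intervals hold -0.53, the median over coding promoters at least that tall. No allowance was made for the choice of these 3 intervals from the list. TG, the thyroglobulin gene, had 2 peaks in DMSO and 103 in MAK683. MITF, the melanocyte regulator, went the other way, with 119 peaks in DMSO and 70 in MAK683, and TLE4, a corepressor, had 23 and 10.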
